A study of Canis lupus familiaris with 6 samples.

Results

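PCK1, PCK2, FBP1, FBP2 and G6PC, which encode enzymes of gluconeogenesis, and PPARGC1A and PPARGC1B, which encode the PGC-1 coactivators, were followed in dog kidney epithelial cells grown alone or among neighbours that lack active Ras. These 7 genes, of 13461 gene names on the array, were found by their name in the array's annotation. They were selected on earlier results of the same comparison, in which PCK1 and PPARGC1A stood out, so the differences between cultures given here for the 7 genes are descriptions. Counts of their probes that passed the fit are printed beside the same share over all probes, and no test of the 7 genes is drawn from them. The array carried 17 probes for them among 43603 probes.

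MDCK is an established line of dog kidney epithelial cells. All 6 samples were β-cat ΔN/RasV12 cells: MDCK cells carrying mCherry-tagged β-catenin Δ131, a stabilised β-catenin without its N-terminus that keeps Wnt signalling on, and GFP-tagged RasV12, an active Ras, under tetracycline control. In single culture (3 arrays) these cells were plated alone, and in mix culture (3 arrays) they were plated with 10 β-cat ΔN cells for each of them, which carry the same mCherry-β-catenin Δ131 but no RasV12. Cells of both groups received tetracycline for 24 h on collagen-coated dishes, and GFP-positive cells were sorted for total RNA, so β-catenin Δ131, RasV12 and tetracycline were shared by both groups and, per the labels, only the neighbours differed. The comparison asks which transcripts of the sorted GFP-positive cells differ with the cells around them. None of the arrays holds the neighbours alone, so neighbour RNA left after sorting cannot be told apart from a change in the RasV12 cells. The labels do not say whether replicates came from separate cultures, nor whether the line is 1 clone.

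In gluconeogenesis, cells of the liver, the kidney cortex and, to a lesser extent, the intestine build glucose from lactate, amino acids and glycerol. Phosphoenolpyruvate carboxykinase turns oxaloacetate into phosphoenolpyruvate in the cytosol (PCK1) or in mitochondria (PCK2), fructose-1,6-bisphosphatase (FBP1, and FBP2 in muscle) takes off a phosphate further up the route, and glucose-6-phosphatase (G6PC) releases free glucose. PCK1 also serves ammonia formation in the proximal tubule and glycerol synthesis in fat. PGC-1α, the product of PPARGC1A, is a coactivator induced through cyclic AMP signalling and CREB, and in the fasted liver it raises transcription of PCK1 and G6PC together with HNF4A and FOXO1. PGC-1α and its relative PGC-1β (PPARGC1B) also drive mitochondrial genes.

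The probes on which the description of PCK1 and PPARGC1A turns are shown here as they stand in the scanner files, 5′ to 3′, because probes of 1 gene gave different readings and the bases are what each reading rests on. Each probe has 60 bases, named by the position in the transcript at which it starts. The whole probe is given for the upstream ones and the first 30 bases for those nearer the 3′ end. All lie on the plus strand of CanFam3.1.
PCK1 at position 719, chr24:42540715-42540903: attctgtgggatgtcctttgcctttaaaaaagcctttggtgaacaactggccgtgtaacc
PCK1 at position 1837, chr24:42543433-42543492: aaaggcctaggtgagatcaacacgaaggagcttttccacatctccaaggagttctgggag
PCK1 at position 2511, chr24:42544107-42544166: tatatactcctgttacttgcctttacgtaa
PPARGC1A at position 712, chr3:86243189-86243248: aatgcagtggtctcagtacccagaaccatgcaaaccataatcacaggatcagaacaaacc
PPARGC1A at position 1136, chr3:86262676-86262735: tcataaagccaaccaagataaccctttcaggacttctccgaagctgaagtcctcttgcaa
PPARGC1A at position 3028, chr3:86281667-86281726: acctgaccagagtgtgccagggcaaaccgc
The span of the probe at 719 on the genome is longer than its 60 bases, and every other span printed here is as long as its probe. The GC content was 45%, 50% and 36.7% for the PCK1 probes in this order, and 45%, 45% and 55% for those of PPARGC1A.

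Values are given first as processed intensity, the spot brightness after background subtraction on a linear scale, which was not scaled between arrays. Levels and differences are on the log2 scale after the 75th percentile of each array (161 to 233 in intensity) was subtracted. A spot was taken as measured where the scanner software marked it as well above background. Between 61.1% and 65.7% of probes were so marked on an array, the dimmest of them at intensities of 4.19 to 4.48, and no spot was saturated. Replicate 1 of both groups lay on slide 1 and replicates 2 and 3 on slide 2. Slide 2 differed from slide 1 for 47.2% of the 26623 probes tested (limma, Benjamini-Hochberg adjusted p under 0.05), so differences within each slide are given as well.

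Of the 17 probes, 6 were well above background on all 6 arrays and 7 on none. A probe was tested where all 3 arrays of at least 1 group measured it. 9 probes of 5 genes met this, and 8 did not. Of the 9, the fit called 3 (adjusted p under 0.05), all higher in mix culture, where it called 0.883% of all probes tested and 0.815% as higher. With the slide as a block it called 4, all higher, against 7.2% of all probes and 3.98% as higher, the added one being PCK1 at 719. For 5 of the 9 the groups did not overlap, against 16.5% of all probes. PPARGC1A at 3028 and PCK1 at 1837 and 719 met the filter only through mix culture, where they were high. Their calls therefore rest on single culture values near or below detection. Over probes measured on all 6 arrays the fit called 1 of these probes, and 143 of all 25613. Since PCK1 and PPARGC1A had been chosen on this comparison, nothing is read from these shares.

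**Figure D1:**
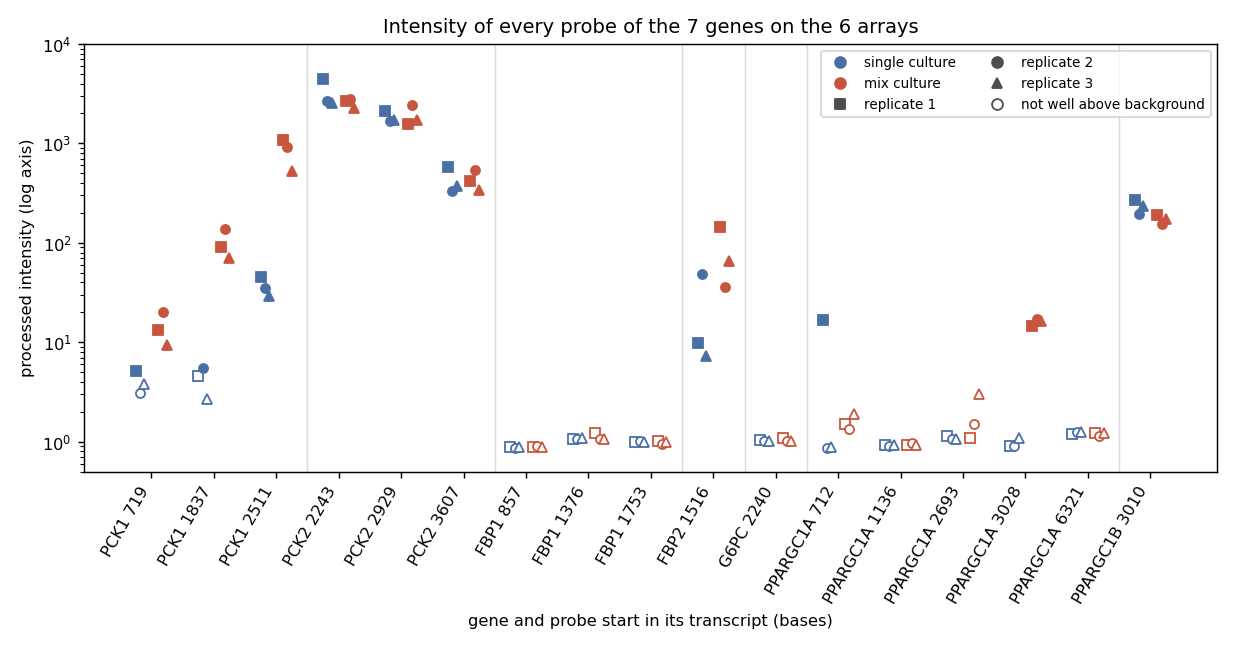
Processed intensity (log axis) of each of the 17 probes on the 6 arrays, blue for single and red for mix culture, with the marker shape giving the replicate and open markers for spots not well above background. All 3 PCK1 probes are higher on every mix array, PPARGC1A at 3028 is measured on the mix arrays alone, and FBP1 and G6PC lie near an intensity of 1 throughout.

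PCK1, the cytosolic phosphoenolpyruvate carboxykinase, was higher in mix culture on all 3 of its probes. At 2511 the single culture arrays read 45.9, 35.2 and 28.9 for replicates 1, 2 and 3, and the mix culture arrays 1083, 922 and 523. Every mix array was far above every single array, and all 6 were well above background. The log2 level was -2.33 ± 0.22 in single and 2.09 ± 0.34 in mix culture (SD, n = 3 each), a difference of 4.42 (SE 0.22), or 21.4-fold. The difference was 4.38 on slide 1 and 4.43 on slide 2.

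At 1837 the single culture arrays read 4.62, 5.50 and 2.69, and only replicate 2 was well above background. The mix culture arrays read 91.9, 136 and 70.3, all of them well above it. The groups were again far apart. The difference of 4.48 (SE 0.35) corresponds to 22.4-fold, but it rests on 2 single culture values near the detection limit. It was 4.13 on slide 1 and 4.66 on slide 2, and 1.27 with normexp. Normexp here stands for another background correction, which adds an offset to every spot, run on the median spot signal with quantile normalization.

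At 719 the same order was seen at low intensity. Single culture gave 5.17, 3.06 and 3.79, with replicate 1 alone well above background, and mix culture gave 13.3, 19.98 and 9.46, all well above it. The difference was 1.73 (SE 0.29), or 3.32-fold, with 1.18 on slide 1 and 2.004 on slide 2. Only the probe at 2511 was well above background on every single culture array, so the sizes at 719 and 1837 are not exact folds. With normexp the difference was 0.26 at 719 and 3.17 at 2511.

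PCK2, the mitochondrial form of the same enzyme, was measured on all 6 arrays by 3 probes on chromosome 8 (4107733 to 4109156), and the groups overlapped on each. At 2243 single culture read 4477, 2647 and 2525 and mix culture 2669, 2780 and 2278. Only single culture replicate 1 stood above the rest. The difference was -0.34 (SE 0.21), with a 95% interval from -0.84 to 0.16.

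The other PCK2 probes, at 2929 and 3607, differed by -0.04 each (SE 0.26 and 0.24). At 2929 the intervals ran from -0.64 to 0.57 and at 3607 from -0.61 to 0.53. On slide 1 all 3 probes were lower in mix culture, by 0.93, 0.62 and 0.65 in the order of position, and on slide 2 the differences were -0.05, 0.25 and 0.27. At 2243 both slides were thus below 0, and at 2929 and 3607 the 2 slides differed in direction. A further probe, TC77991, is described by the array as cytosolic phosphoenolpyruvate carboxykinase of the mouse but lies just downstream of the PCK2 probe at 2243 (chromosome 8, 4107812 to 4107871). It read 13383, 6775 and 6289 in single and 7721, 7135 and 5691 in mix culture, a difference of -0.35 (SE 0.24) like that of its PCK2 neighbour and unlike those of PCK1.

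FBP1, the fructose-1,6-bisphosphatase of liver and kidney, was not well above background on any array. Its 3 probes, on chromosome 1 between 72110450 and 72125370, read between 0.874 and 1.23 in both groups. G6PC, the catalytic subunit of glucose-6-phosphatase, likewise gave no spot well above background at chr9:20133002-20133061 on the minus strand, where its probe, printed in 5 spots, read 1.007 to 1.099. For both genes the arrays set only an upper limit, and whether they differed between cultures could not be seen.

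FBP2, the fructose-1,6-bisphosphatase known from muscle, was well above background on all 6 arrays with wide spread. Its probe at 1516 (chr1:72168358-72168417, plus strand) read 9.94, 48.4 and 7.25 in single and 145, 35.7 and 65.4 in mix culture. The groups overlapped, since single culture replicate 2 exceeded mix culture replicate 2. The difference of 2.14 had an SE of 0.78. It was 3.69 on slide 1, 1.36 on slide 2 and 0.81 with normexp. Leaving out 1 array, it ran from 1.64 (without single culture replicate 3) to 3.03 (without single culture replicate 2).

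PPARGC1A, which encodes the coactivator PGC-1α, was measured in mix culture by 1 of its 5 probes. At 3028 single culture read 0.911, 0.911 and 1.08, none well above background, and mix culture 14.6, 17.0 and 16.4, all well above it. Mix culture was 3.60-fold higher when its mean was set against the lowest signal that counted as well above background on each single culture array. This is no strict lower bound, since some undetected spots read above that signal. On single culture replicate 1, PCK1 at 1837 was undetected at 4.62, where the lowest such signal was 4.19. The fitted log2 difference, which takes the undetected values as they stand, was 3.98 (SE 0.24), with 3.82 on slide 1 and 4.06 on slide 2. With normexp it was 0.37. The probe at 3028 was the only one of the 9 probes whose level differed between slides (0.52 higher on slide 2, adjusted p = 0.00951, limma). That fit includes the undetected single culture values, whose scaled levels follow background signal and the percentile subtracted from each array.

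The other PPARGC1A probes gave no such reading. At 1136, 2693 and 6321 no array was well above background, with intensities from 0.8996 to 3.05. At 712 only single culture replicate 1 was, at 16.8, while the other 5 arrays read 0.875 to 1.92. The higher level in mix culture thus rests on 1 probe and was not seen with the 4 others, of which 3 could not have given a fold, being undetected in both groups. TC67481, a probe without a gene name that lies between the probes at 712 and 1136 on the same strand (chr3:86261571-86261630), read 1.14, 1.68 and 1.15 in single and 5.78, 6.39 and 5.22 in mix culture. Every mix value lay above every single value, but only 2 mix arrays were well above background, so it was not tested.

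PPARGC1B, which encodes PGC-1β, was lower on every mix array. Its probe at 3010 (chr4:59174621-59174680, minus strand) read 267, 197 and 237 in single and 189, 155 and 172 in mix culture. The difference was -0.50 (SE 0.17), a 1.41-fold lower level, with -0.68 on slide 1 and -0.41 on slide 2. The groups did not overlap after scaling. Another 2 probes at this locus, on the same strand, carry no gene name. One (chr4:59170118-59170177) read 97.3, 69.4 and 77.7 against 80.7, 58.9 and 57.2, a difference of -0.38 (SE 0.14). The other, TC70090, gave -0.23 (SE 0.28).

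**Figure D2:**
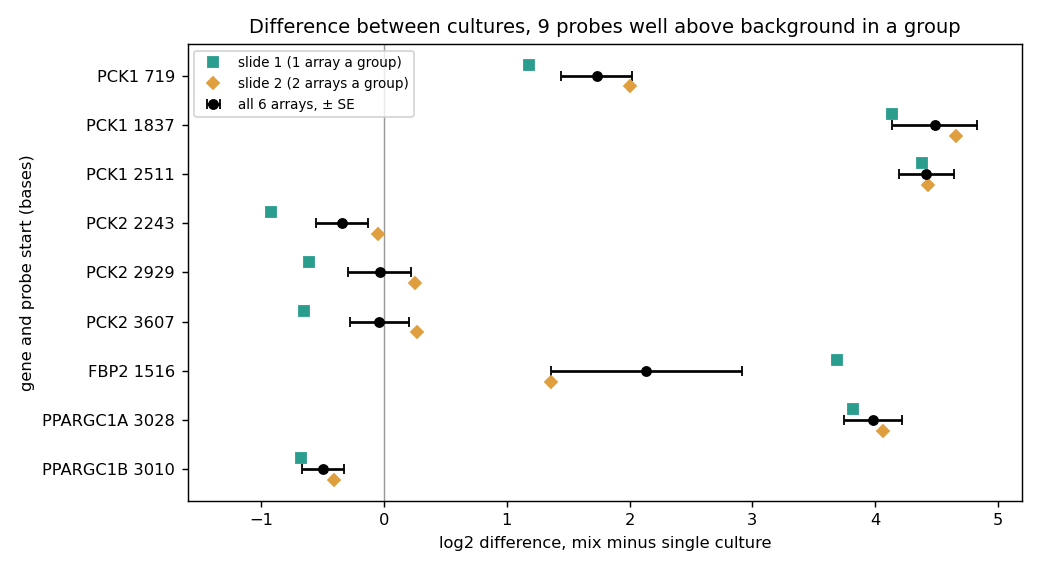
Log2 difference, mix minus single culture, for the 9 probes well above background on all arrays of a group. Black points with bars are all 6 arrays ± SE, green squares slide 1 and orange diamonds slide 2. PCK1 at 1837 and 2511 and PPARGC1A at 3028 lie near 4 on both slides, PCK2 lies below 0 on slide 1 and near 0 on slide 2, and FBP2 differs most between slides.

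The other genes of the pathway were read from 5 lists, with the brightest probe of each gene. Over all 9877 genes tested this way the median difference was -0.05, and 0.942% of them were called (0.871% as higher), or 7.53% with the slide as a block. Of 99 pathway genes tested, 4 were called, all higher in mix culture: NR4A1, CREM and NR4A2 among the regulators, and CA2. With the slide as a block 12 were called, and with the replicate number as a block 9. Without single culture replicate 2, single culture replicate 3, mix culture replicate 2 or mix culture replicate 3, the count was 0.

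The remaining enzymes and carriers of the gluconeogenic route gave no call. Of 25 listed, 20 were tested. Their median difference was -0.13, with 18 lower and 2 higher, and the whole range ran from -0.27 to 0.21. The lowest was PC, pyruvate carboxylase, which supplies oxaloacetate to PCK1 and PCK2 (-0.27, SE 0.31). The highest was G6PC3, the glucose-6-phosphatase subunit found in most tissues (0.21, SE 0.33). None was called with the slide as a block.

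The enzymes that run the opposite way, such as hexokinases, phosphofructokinases and pyruvate kinases, gave no call either. Over 11 genes tested of 14 the median was 0.07. PFKFB3, which makes an activator of phosphofructokinase, was highest (0.24, SE 0.36), and PFKP, a phosphofructokinase, was lowest (-0.27, SE 0.45).

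Among the regulators known to act on PCK1, G6PC or PPARGC1A, 3 of 32 tested were called higher in mix culture and none lower. Without regard to calls, 17 were higher and 15 lower, and the median was 0.02. NR4A1, an orphan nuclear receptor induced by cyclic AMP and other stimuli, read 78.6, 116 and 101 in single and 330, 459 and 430 in mix culture. Every mix value was above every single value, and the difference was 1.98 (SE 0.32, limma adjusted p = 0.0496). That call lay at the threshold and was lost with median scaling (adjusted p = 0.0534), quantile normalization (0.0568) and normexp (0.101). It was also lost with no filter on dim probes (0.0672), over probes measured on all 6 arrays (0.0687) and by the methods' t-test (0.285). Leaving out 1 array, it was kept only without mix culture replicate 1 (0.0228). With the slide as a block it was kept (6.2e-05), as it was with the replicate number as a block (0.000212).

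NR4A2, a relative of NR4A1, read 7.75, 6.08 and 6.03 against 26.7, 16.2 and 12.6 at its brightest probe. The difference was 1.35 (SE 0.18, limma adjusted p = 0.0223), and its other probe gave 1.20 (adjusted p = 0.148). With normexp the difference at the brightest probe was 0.28 and was not called (adjusted p = 0.191). CREM, which encodes cyclic AMP-responsive modulators related to CREB, read 161, 101 and 117 against 466, 323 and 285 at position 1846, a difference of 1.43 (SE 0.16, limma adjusted p = 0.0108). Its probe at 269 gave -0.05 (adjusted p = 0.981), so the 2 CREM probes disagreed.

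With the slide as a block, 4 regulators were called higher and 3 lower. The added ones, named after their values were seen, were PPARA, a nuclear receptor of fatty acid oxidation (1.23, adjusted p = 0.00964, with 1 of 3 single culture arrays well above background, so that the size is no exact fold), and, in the other direction, KLF9 (-1.22, 0.00159), TRIB3 (-0.90, 0.00812) and PPARG (-0.45, 0.0407). None of these passed without the block. Another PPARA probe was well above background on no array. With the replicate number as the block PPARG was not called (adjusted p = 0.0796). HNF4A, which lies outside the rule for naming genes and is the partner of PGC-1α at the PCK1 promoter, read 5.05 to 6.32 in single and 6.81 to 7.04 in mix culture, with a scaled difference of 0.19 (SE 0.19) and overlapping groups.

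The nuclear receptors and mitochondrial genes known as partners or targets of the PGC-1 coactivators gave no call in 26 tested genes. Their median was -0.19, with 18 lower and 8 higher. PPARA had the highest value (1.23, SE 0.48), with 1 of 3 single culture arrays well above background, and FNDC5, the precursor of irisin, was lowest (-0.94, SE 0.19, limma adjusted p = 0.0999). With the slide as a block 1 was called higher, PPARA, and 2 were called lower, PPARG and FNDC5.

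Among genes that work with PCK1 in renal ammonia formation or in glyceride-glycerol synthesis, 1 of 12 tested was called higher and none lower. Without regard to calls, 8 were higher and 4 lower, and the median was 0.07. CA2, cytosolic carbonic anhydrase, read 1032, 605 and 878 in single and 2419, 2012 and 1812 in mix culture. The groups did not overlap, and the difference was 1.27 (SE 0.18, limma adjusted p = 0.0290). Its other probe gave 1.22 (adjusted p = 0.0523). With the slide as a block 3 were called higher and 1 lower. The added ones, again named after their values were seen, were GK, glycerol kinase (0.65, adjusted p = 0.0155), SLC38A3, a glutamine transporter (0.62, 0.0477), and GPAM, an acyltransferase of glyceride synthesis (-0.51, 0.0429). With the replicate number as the block SLC38A3 and GPAM were not called (adjusted p = 0.0795 and 0.0655). For SLC38A3 the 2 other probes measured gave 0.17 and 0.32, neither called. The 2 other GPAM probes gave -0.40 and -0.47, neither called with the slide as a block.

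**Figure D3:**
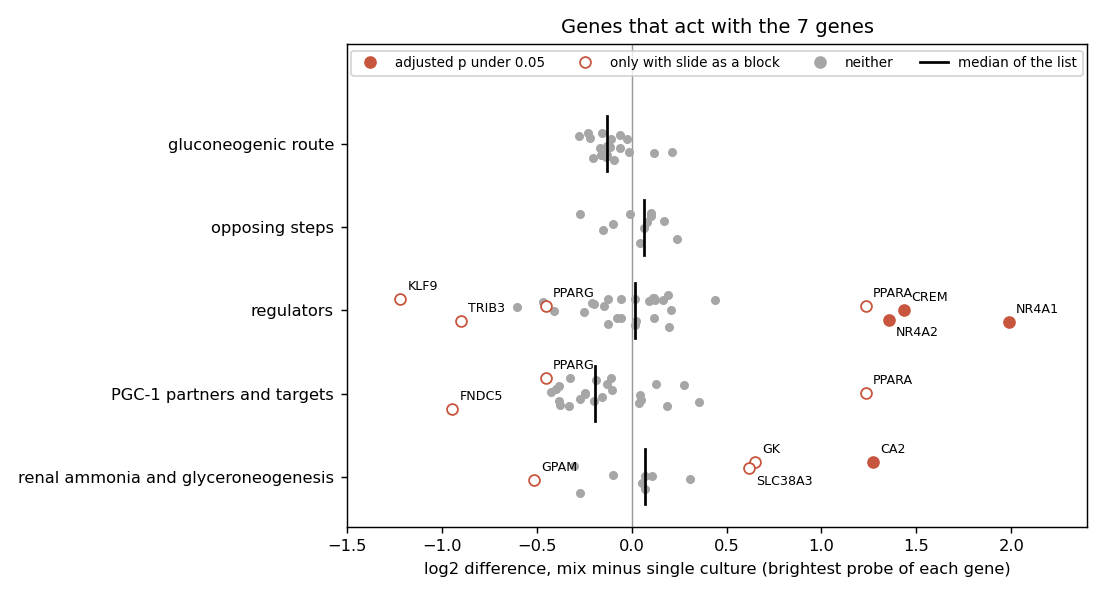
Log2 difference, mix minus single culture, of each gene tested in the 5 lists, with the median of each list as a black line. Filled red points have an adjusted p under 0.05, open red points only with the slide as a block, and grey points neither. The gluconeogenic route and the opposing steps lie within 0.3 of 0, and the called genes are regulators and CA2.

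The arrays were also searched for the genes whose levels ran most like those of PCK1 at 2511 and PPARGC1A at 3028, among 15753 named probes well above background on all 6 arrays. Pearson's r is given as a description over 6 points, 3 of each group, so it mainly follows the step between the groups. The single culture values of PPARGC1A at 3028 were all undetected, so its r within that group follows background signal, and no order is read among the genes named for it. For PCK1 the 5 most alike were MEIS1 (r = 0.999), a homeobox transcription factor, PKP4 (0.997), a plakophilin of cell junctions, ALAS1 (0.997), the first enzyme of haem synthesis, RABGAP1L (0.997) and OAS2 (0.996), an interferon-induced oligoadenylate synthetase. Their differences ran from 0.62 (PKP4) to 3.02 (OAS2). For PPARGC1A they were APOL5 (0.997), PARP14 (0.994), PHYHIPL (0.993), HERC6 (0.993) and MX2 (0.993), an interferon-induced GTPase, with differences from 1.51 (HERC6) to 4.99 (MX2). No gene was in both sets, and nothing is read from that, since each set holds only the 5 highest of 15753 probes compared.

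**Figure D4:**
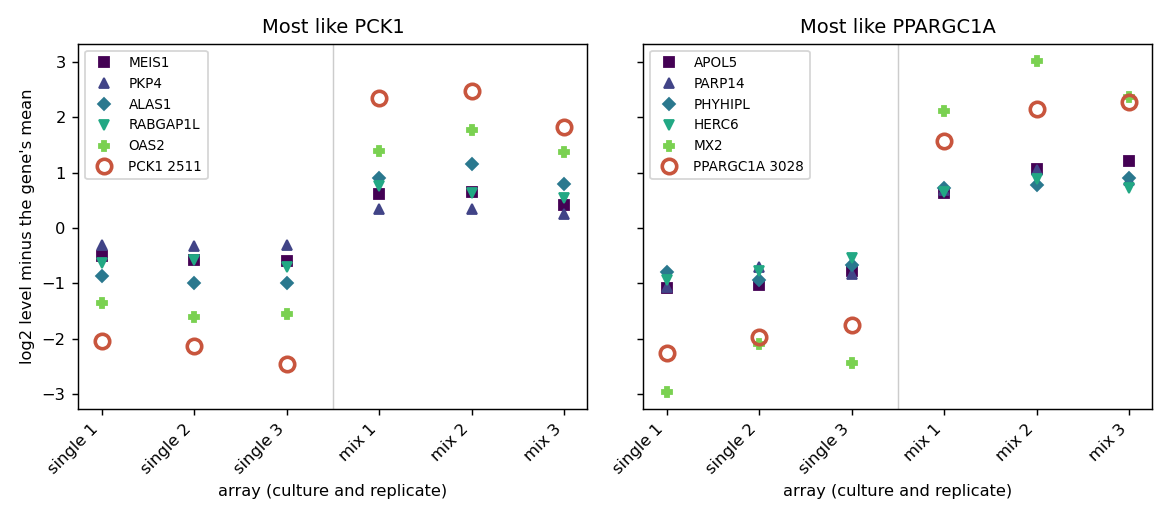
Log2 level of PCK1 at 2511 (left) and PPARGC1A at 3028 (right), as open circles, with the 5 genes most like each, on the 6 arrays, each minus its own mean over the arrays. The 3 single culture arrays of every gene lie below 0 and the 3 mix culture arrays above, and the step is of different height between genes.

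Cell identity was read from marker lists. Of 18 distal tubule and general epithelial markers 14 were tested, among them EPCAM, CDH1, KRT18 and KRT19. Of 12 proximal tubule markers 5 were: GGT1, MIOX, CUBN, SLC22A6 and SLC5A2, each well above background on all 6 arrays. LRP2, SLC34A1 and AQP1 were not well above background throughout either group, and SLC13A3, ANPEP and SLC5A1 were not tested either. Of the hepatocyte, adipocyte and leukocyte markers 2 of 8, 4 of 6 and 4 of 7 were tested. No marker of the 5 lists was called, and with the slide as a block 1 was, CDH1 (-0.47, adjusted p = 0.0444), which was not called with the replicate number as the block (0.0761).

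The summed linear level of each list, in units of the array's 75th percentile, ran for proximal tubule markers from 1.82 to 4.28 in single and 2.77 to 4.68 in mix culture. For hepatocyte markers it ran from 0.929 to 1.31 and from 0.866 to 1.04, for adipocyte markers from 0.578 to 0.715 and from 0.540 to 0.717, and for leukocyte markers from 1.502 to 1.84 and from 1.42 to 1.65. For the distal and epithelial markers it ran from 669.7 to 834 and from 471 to 665, the closest arrays being 669.7 in single and 664.9 in mix culture. KRT18, KRT19 and EPCAM were the largest terms of this sum, each with overlapping groups and no call. Of the 14 distal and epithelial markers tested, 12 were lower and 2 higher in mix culture, with a median difference of -0.17. The 2 higher ones were PAX8 (0.47) and GATA3 (0.88). The part of these values in the PCK1 and PPARGC1A differences was not tested, and in sorted bulk cells a change in the share of cells that express a gene cannot be told apart from a change in RNA per cell. The probe for dog HRAS, read because the cells carry an introduced Ras whose gene the labels do not name, gave 12906, 18894 and 15116 in single and 10530, 9258 and 11827 in mix culture (difference -0.62, SE 0.28, limma adjusted p = 0.608).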

How the data were processed

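RNA of sorted MDCK β-cat ΔN/RasV12 cells was labelled with Cy3 and hybridised to 6 single-colour Agilent canine arrays, 3 per group. The authors deposited 1 scanner file per array with spot intensity. Per the file headers, Feature Extraction (11.5.1.1 on slide 1, 12.1.1.1 on slide 2) subtracted the background and did not scale arrays. A value table, which the authors deposited on a log2 scale with no account of how it was made, was also at hand. Its median within each slide was 0 (tolerance 0.01) for 100% of probes, so it was used as an alternative only. Its columns for mix culture replicates 2 and 3 followed the scanner file of the other (r = 0.999 and 0.993, against 0.457 and 0.459 for their own), which leaves comparisons between groups as they are.

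Outlier spots (5 to 9 per array) and control spots were left out, spots of a probe were averaged as log2 values, and the 75th percentile of each array over probes was subtracted. limma 3.58.1 in R 4.3.3 (lmFit, eBayes, two-sided) compared the groups over 26623 probes well above background on all arrays of a group, with Benjamini-Hochberg adjustment over all of them. The script was tested on simulated data. Errors are SD over 3 arrays unless called SE. The number of arrays limits the precision, and p-values measure the spread between these samples, which may be technical.

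The genes and lists were chosen with earlier results of these data known, so counts over them are no independent evidence. Named were all 7 genes and their probes, the called genes of each list (at most 5) or else its highest and lowest, and the 5 genes most like PCK1 and PPARGC1A. Besides, 6 of the 7 names matched RefSeq genes of the dog assembly UU_Cfam_GSD_1.0, from which no coordinate was taken. G6PC did not match and keeps the array's name. Unnamed probes were sought within 5000 bases of the probes of these genes or by description, which gave 8. Exon annotation was not used here.

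Deviations of same-numbered arrays from their group means correlated at 0.801, 0.530 and 0.572, so the replicate number was used as a block in an alternative. On slide 2 the differently numbered arrays correlated somewhat more (0.610 and 0.632), so the numbers as given show no pairing of replicates 2 and 3 beyond their slide. Mix culture replicates 2 and 3 were exchanged between the value table and the scanner files, and which numbering is right was not tested. Alternatives were other scalings, background corrections and filters, slide or replicate as a block, the methods' t-test and leaving out each array. Figures were drawn with matplotlib 3.10.9.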

Additional observations from a re-analysis of the deposited data

How the results depend on the processing

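PCK1 at 2511 stayed higher in mix culture under all 18 alternatives (log2 difference 3.17 to 4.61), PCK1 at 1837 under 17 (1.27 to 4.76) and PPARGC1A at 3028 under 17 (0.37 to 4.20). The low ends came from normexp on median spot signal, with an offset of 50 that lifts dim spots, and quantile normalization. The parts of this setting were not separated. The PPARGC1A difference against the lowest signal well above background lay between 1.71 and 2.06 on the log2 scale in the 8 alternatives that gave one.

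Under the methods' t-test with Benjamini-Hochberg adjustment the count of these probes called fell from 3 to 0. It was 1 over probes measured on all 6 arrays and 5 in the authors' table. Leaving out 1 array at a time kept it at 3. PCK2 at 2243 stayed below 0 under all 18 alternatives (-0.93 to -0.05). The other PCK2 probes changed sign. At 2929 the difference was 0.0165 with quantile normalization, 0.00619 with normexp, 0.0167 in the authors' table and 0.25 on slide 2 alone. Leaving out 1 array it was -0.25 to 0.24, above 0 only without mix culture replicate 1. At 3607 it was 0.27 on slide 2 alone and -0.25 to 0.12 leaving out 1 array, above 0 without single culture replicate 1, mix culture replicate 1 or mix culture replicate 3.

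The count of pathway genes called, 4, was 2 with normexp, 2 with no filter on dim probes, 17 in the authors' table, 12 with the slide as a block, 9 on slide 2 alone, 9 with the replicate block, 9 with that block and mix culture 2 and 3 crossed, 0 by the methods' t-test, and 0 to 3 leaving out 1 array. The count over all probes, 235 (92.3% higher in mix culture), was 137 with normexp, 143 over probes measured on all arrays, 4077 in the authors' table (47.8% higher), 1917 with the slide as a block (55.3% higher), 983 on slide 2 alone (65.2% higher), 1399 with the replicate block (61.5% higher), 1446 with the crossed block (59.1% higher), 8 by the methods' t-test (2590 at an unadjusted p under 0.05), and 86 to 242 leaving out 1 array. The table is centred within slides, so its fit without a block leaves out the slide difference and does not count the centring. Its p-values therefore tend to be too small, and its counts are not on a par with the others. The other causes were not tested. Signal over background limits FBP1, G6PC, the 4 dim PPARGC1A probes and the single culture values of PCK1 at 719 and 1837.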

Other observations

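Of the 8 probes without a gene name at the loci of these genes or with their description, 4 not described above were seldom measured. TC67805, described as glucose-6-phosphatase and lying at the G6PC locus, read 79.6 and was well above background on single culture replicate 1 alone, with 0.955 to 3.07 on the other 5 arrays. On the same array PPARGC1A at 712 was also measured, at 16.8, and on no other. TC74737, described as fructose-1,6-bisphosphatase and lying at the FBP1 locus, read 1.057 to 1.102 on all arrays and was never well above background. TC65787, described as PGC-1α, lies on chromosome 27 and not on chromosome 3 with PPARGC1A. It read 1.55 to 6.39 and was well above background on 1 mix culture array. A probe on the opposite strand at the PPARGC1A locus read 0.859 to 1.13 and was never well above background.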
